A study of Mus musculus with 6 samples.

Results

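The 10 genes described here are the TRAF adaptors Traf1 and Traf2, the NF-kB subunits Nfkb1, Nfkb2, Rela and Relb, and the inhibitors and feedback targets Nfkbia, Tnfaip3, Birc3 and Bcl3. They were chosen by name out of the 21878 genes of the count table, with the difference of Traf1 between these same libraries already known, so their values are a description and carry no test. All 10 had enough counts to enter the fit, which held 14143 genes. RNA-seq was performed on thyroid glands of untreated female mice at 12 weeks, with 3 Thy-Tet1+/+ libraries from wild-type mice and 3 libraries labelled Thy-Tet1-/- from thyroid-specific Tet1 knockout mice. The knockout was made by crossing Tet1 flox mice with mice that express Cre in follicular epithelial cells. The other cells of the gland keep Tet1, and the whole gland was sequenced, so fewer cells of a type and less RNA per cell cannot be told apart.

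NF-kB is a family of dimeric transcription factors that is held inactive in the cytoplasm by IkB proteins. In the canonical arm, receptors of the TNF, interleukin and Toll-like families signal through TRAF adaptors to the IKK complex, which marks IkB for degradation and frees RELA and p50, the product of Nfkb1. In the non-canonical arm the kinase NIK leads to processing of the Nfkb2 product, which pairs with RELB. Several genes of the pathway, among them Nfkbia, Tnfaip3, Birc3, Nfkb2, Relb and Traf1, are themselves transcribed by NF-kB. In the thyroid, the pathway is known mainly from autoimmune and inflammatory disease and from thyroid cancer.

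The targeted gene went against its label. Tet1 had 48, 71 and 62 counts in Thy-Tet1+/+ replicates 1, 2 and 3, against 172, 162 and 241 counts in the libraries labelled Thy-Tet1-/-, and which exons these reads fell in cannot be read from counts per gene. Every direction given is therefore that of the libraries labelled Thy-Tet1-/- against Thy-Tet1+/+. Total counts ranged from 8867683, in Thy-Tet1+/+ replicate 1, to 19950898 per library. Levels are given as CPM, read counts scaled to the size of the library after TMM normalization. On this scale 3 counts come to 0.152 to 0.356 CPM, a floor for counting error only, and all 10 genes lay above it in every library. Of the 8 follicular cell markers 7 were tested, with thyroglobulin (Tg) at 252697, 313667 and 285590 CPM in Thy-Tet1+/+ and at 205155, 236526 and 190892 CPM in the libraries labelled Thy-Tet1-/-, while Slc26a4 had at most 5 counts in any library. Other follicular markers went the other way. Nkx2-1, a thyroid transcription factor, was the 1 of 8 past the limits, at 287, 336 and 195 CPM against 480, 373 and 430 CPM, and Pax8, another, stood at 258, 262 and 258 CPM against 339, 330 and 369 CPM, without overlap but short of the fold limit. RNA of T cells stood apart in 1 library of each group. The summed level of 9 T cell markers was 148.9, 20.9 and 13.3 CPM in Thy-Tet1+/+ replicates 1, 2 and 3 and 12.2, 9.30 and 559.9 CPM in replicates 1, 2 and 3 of the other group. Rag1, which recombines antigen receptor genes in developing lymphocytes, had 350 and 2506 counts in these 2 libraries and at most 2 in the other 4.

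Traf1, a TNF receptor-associated factor without the RING domain of its relatives that binds TRAF2 and the cIAP proteins, gave the largest difference of the 10 genes. It stood at 22.4, 19.5 and 14.8 CPM in Thy-Tet1+/+ replicates 1, 2 and 3 and at 69.7, 63.8 and 82.0 CPM in the libraries labelled Thy-Tet1-/-. The lowest library of the second group was well above the highest of the first, on counts of 189 to 365 against 1077 to 1614. The log2 fold change was 1.93 ± 0.19 (SE, n = 3 per group), a fold of 3.81. In the replicates labelled Thy-Tet1-/- 1 and 2, with Traf1 at 69.7 and 63.8 CPM, the summed T cell markers were at 12.2 and 9.30 CPM. With Thy-Tet1+/+ replicate 1 and the labelled replicate 3 left out, the log2 fold change of Traf1 was 1.96. The gene lies at chr2:34941750-34961772 on the minus strand of GRCm38, the assembly also called mm10, and none of its exons overlaps those of another annotated gene.

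Traf2, the adaptor that recruits cIAP proteins to TNF receptors, differed less and more evenly. It stood at 34.9, 30.5 and 35.2 CPM in Thy-Tet1+/+ and at 49.7, 44.7 and 46.1 CPM in the libraries labelled Thy-Tet1-/-. The groups did not overlap, but the log2 fold change of 0.48 ± 0.11 (SE), a fold of 1.40, was under the fold limit of 1.5. Differences are called past the limits here where the fold in either direction was over 1.5 and the unadjusted p of edgeR was under 0.05.

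**Figure D1:**
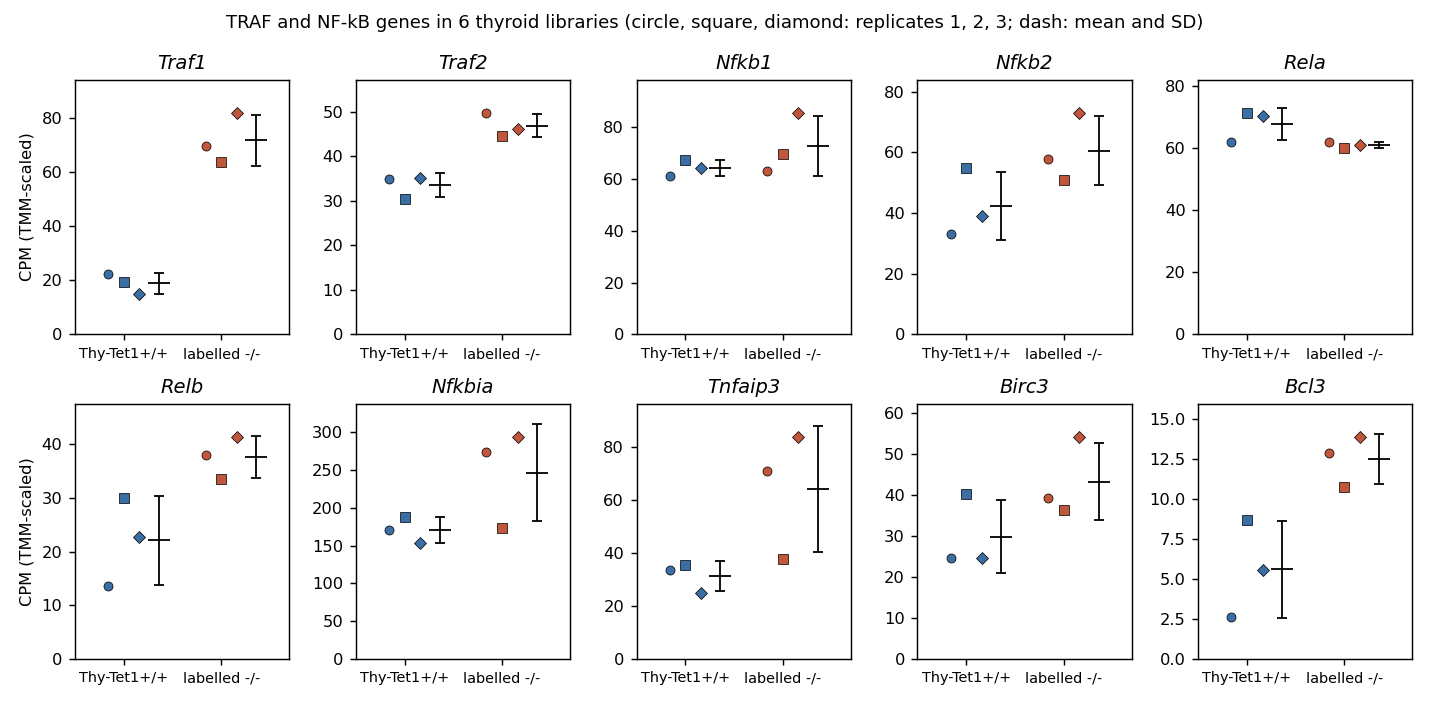
CPM of the 10 genes, with library size scaled by TMM, in each of 3 Thy-Tet1+/+ libraries (blue) and 3 libraries labelled Thy-Tet1-/- (red). Each panel has its own axis from 0, and the dash and bars give the mean and SD. The groups of Traf1, Traf2, Relb, Tnfaip3 and Bcl3 do not overlap, and those of the other 5 genes do.

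The promoter windows of these genes differ in whether they hold 1 strict form of the kB consensus, a sequence that NF-kB dimers bind. A window without it does not show that the gene lacks kB sites, as variant forms and other regions were not searched. RefSeq promoter windows of GRCm38.p6, from 250 bases before to 50 bases after a start site, were at hand for 8 of the 10 genes, all but Relb and Nfkb1. The consensus was searched on both strands, and overlapping matches were all kept. It was found for 4 of these 8 genes, Nfkb2, Nfkbia, Tnfaip3 and Bcl3, and not in the windows of Traf1, Traf2, Rela and Birc3. Over all windows 4.51% of 32851 held a match, and 5.14% of 27025 genes had a window with one. Nfkb2 had 3 windows, which all held a match, and Tnfaip3 had 2, of which 1 did. The window of Traf1 is shown because the gene had the largest difference, and for each gene with a match 1 window that holds it is shown. Each is written 5′ to 3′ on the strand of the gene, with bases inside a match in capitals.
Traf1, chr2:34961723-34962022, minus strand: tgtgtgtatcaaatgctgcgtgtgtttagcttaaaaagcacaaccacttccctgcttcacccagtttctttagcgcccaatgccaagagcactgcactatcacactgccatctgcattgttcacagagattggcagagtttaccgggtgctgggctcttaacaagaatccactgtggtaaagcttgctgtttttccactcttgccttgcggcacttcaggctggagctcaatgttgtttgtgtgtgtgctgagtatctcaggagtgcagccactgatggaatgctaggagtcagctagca
Nfkb2, chr19:46304487-46304786, plus strand: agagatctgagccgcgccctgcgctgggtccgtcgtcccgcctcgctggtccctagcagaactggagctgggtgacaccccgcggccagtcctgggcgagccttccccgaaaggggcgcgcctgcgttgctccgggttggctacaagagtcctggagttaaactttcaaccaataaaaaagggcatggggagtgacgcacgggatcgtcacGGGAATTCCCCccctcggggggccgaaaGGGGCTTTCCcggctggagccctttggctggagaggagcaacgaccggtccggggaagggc
Nfkbia, chr12:55492598-55492897, minus strand: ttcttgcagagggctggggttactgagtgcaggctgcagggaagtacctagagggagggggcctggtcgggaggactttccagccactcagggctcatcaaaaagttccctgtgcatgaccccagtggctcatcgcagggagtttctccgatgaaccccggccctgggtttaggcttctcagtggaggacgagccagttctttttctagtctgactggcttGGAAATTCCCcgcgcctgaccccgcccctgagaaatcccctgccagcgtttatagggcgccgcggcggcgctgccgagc
Tnfaip3, chr10:19015361-19015660, minus strand: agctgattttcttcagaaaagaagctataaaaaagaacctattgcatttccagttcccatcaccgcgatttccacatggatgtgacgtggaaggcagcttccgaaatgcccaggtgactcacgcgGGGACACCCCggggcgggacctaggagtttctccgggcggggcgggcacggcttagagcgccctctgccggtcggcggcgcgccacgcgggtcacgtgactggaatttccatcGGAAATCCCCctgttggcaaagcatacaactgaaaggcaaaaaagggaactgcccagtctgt
Bcl3, chr7:19822706-19823005, minus strand: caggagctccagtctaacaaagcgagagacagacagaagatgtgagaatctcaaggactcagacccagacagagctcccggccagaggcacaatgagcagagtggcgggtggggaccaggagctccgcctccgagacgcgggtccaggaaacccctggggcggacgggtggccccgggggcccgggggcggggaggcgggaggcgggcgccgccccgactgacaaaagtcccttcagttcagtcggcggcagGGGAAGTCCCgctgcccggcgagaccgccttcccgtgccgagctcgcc
Counted from the first transcribed base as 1, the matches begin at -39, -38 and -11 in this window of Nfkb2, at -29 in Nfkbia, at -125 and -12 in Tnfaip3, and at 3 in Bcl3. In the other 2 windows of Nfkb2, which start from later sites, they begin at -236 and 11 and at -225. The matches at -39 and -38 of Nfkb2 overlap each other. Such a match describes letters in the window, and binding was not measured.

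Among the subunits, the canonical pair gave the smallest differences. Rela, the main transactivating subunit, stood at 61.9, 71.4 and 70.4 CPM in Thy-Tet1+/+ and at 61.9, 60.1 and 61.2 CPM in the libraries labelled Thy-Tet1-/-. It was the only one of the 10 genes with a lower mean in the second group, with a log2 fold change of -0.15 ± 0.10 (SE), and the ranges touched. The sign of Rela turned with the scaling, to 0.03 with total counts alone and 0.19 with scaling to 10 epithelial genes. These scalings moved the median of all genes by 0.19 and 0.34, and relative to that median Rela was at -0.15 in each. Nfkb1, the p50 precursor, stood at 61.2, 67.5 and 64.3 CPM against 63.0, 69.7 and 85.5 CPM. The labelled replicate 1 of Nfkb1 lay inside the Thy-Tet1+/+ range and the other 2 above it, and the log2 fold change was 0.18 ± 0.14 (SE).

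Both genes of the non-canonical pair had a higher mean in the second group, and the ranges were apart for Relb alone. Relb stood at 13.5, 29.9 and 22.8 CPM in Thy-Tet1+/+ and at 38.0, 33.5 and 41.3 CPM in the second group. Its difference, 0.76 ± 0.28 (SE) on the log2 scale, was past the limits, and Thy-Tet1+/+ replicate 1 lay far below the other 2. Nfkb2 stood at 33.1, 54.8 and 39.1 CPM against 57.6, 51.0 and 73.0 CPM. Thy-Tet1+/+ replicate 2 of Nfkb2 was above the labelled replicate 2, so the groups overlapped, with a log2 fold change of 0.51 ± 0.22 (SE). Exons of Nfkb2 overlap those of Psd on the opposite strand over 299 bases and those of a non-coding transcript over 531 bases. Psd had 17 to 36 counts per library in Thy-Tet1+/+ and 66 to 90 in the second group, against 279 to 1436 counts of Nfkb2, and whether strand was used in counting is not stated.

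Of the inhibitors, Nfkbia was the most abundant of the 10 genes. It encodes IkB alpha, which holds RELA dimers in the cytoplasm and is resynthesized on their release. It stood at 171, 187 and 153 CPM in Thy-Tet1+/+ and at 274, 173 and 293 CPM in the libraries labelled Thy-Tet1-/-. The labelled replicates 1 and 3 were above every Thy-Tet1+/+ library, whereas replicate 2 lay inside their range, and the log2 fold change was 0.53 ± 0.21 (SE). Tnfaip3, a ubiquitin-editing enzyme that switches off signalling to NF-kB, showed a similar order of libraries, at 33.5, 35.6 and 25.0 CPM against 71.1, 37.6 and 83.7 CPM. The labelled replicate 2 of Tnfaip3 was just above the highest Thy-Tet1+/+ library. Its difference, 1.03 ± 0.30 (SE) on the log2 scale, was past the limits, and it was 0.84 and no longer past them without the 2 libraries with most T cell marker RNA.

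Birc3, a cIAP ubiquitin ligase that acts with TRAF proteins and restrains NIK, stood at 24.7, 40.2 and 24.7 CPM in Thy-Tet1+/+ and at 39.4, 36.4 and 54.2 CPM in the second group. Thy-Tet1+/+ replicate 2 was inside the range of the libraries labelled Thy-Tet1-/-, and the log2 fold change of Birc3 was 0.53 ± 0.25 (SE). Bcl3, an atypical nuclear IkB protein that works as a cofactor of p50 and p52 dimers, had the lowest counts of the 10 genes. It stood at 2.61, 8.66 and 5.55 CPM against 12.9, 10.8 and 13.9 CPM, from 22 counts in Thy-Tet1+/+ replicate 1 to 273 in the labelled replicate 3. The groups of Bcl3 did not overlap, and the difference of 1.14 ± 0.41 (SE) on the log2 scale was past the limits. An antisense transcript shares 161 exonic bases with Bcl3.

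Taking the 10 genes together, 4 were past the limits, Traf1, Relb, Tnfaip3 and Bcl3, all of them higher, where 5.54% of all tested genes were past the limits as higher and 3.66% as lower. The groups did not overlap for 5 of the 10, each higher, where 12.5% of all tested genes did not overlap as higher and 14.3% as lower. The median log2 fold change was 0.53, against 0.00063 over all tested genes. Since these genes were picked on this contrast, nothing is read from the shares. Without Thy-Tet1+/+ replicate 1 and the labelled replicate 3 the count past the limits was 1, Traf1, and the log2 fold changes of Relb, Bcl3, Nfkb2, Birc3 and Nfkb1 came to 0.44, 0.74, 0.21, 0.22 and 0.01. That comparison has 2 libraries in each group. Over all tested genes it put 1503 past the limits, against 1301 with all 6 libraries. With all 6 libraries and a lymphocyte score, the mean log2 CPM of T and B cell markers, as covariate, 4 of the 10 were past them. These were again Traf1, Relb, Tnfaip3 and Bcl3, and over all genes the count with this covariate was 1279.

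**Figure D2:**
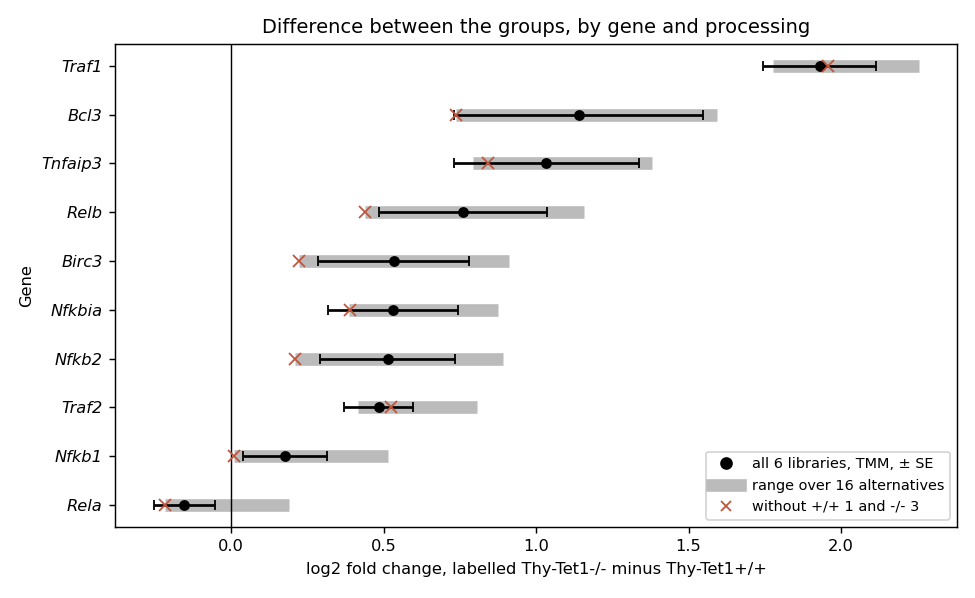
Log2 fold change of each of the 10 genes, libraries labelled Thy-Tet1-/- minus Thy-Tet1+/+, with all 6 libraries (black point, bar SE), its range over 16 alternative ways of processing (grey) and its value without the 2 libraries with most T cell marker RNA (cross). Traf1 stays between 1.78 and 2.26, and the range of Rela spans 0.

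The libraries differed among themselves in an orderly way. The labelled replicate 3, which held most T cell marker RNA, was the highest of all 6 libraries for 8 of the 10 genes, all but Traf2 and Rela. The labelled replicate 2 was the lowest of its group for 9 of the 10, all but Nfkb1. In Thy-Tet1+/+, replicate 2 was the highest for 8 of the 10 genes and replicate 1 the lowest for 6. The 2 libraries with most T cell marker RNA belong to different groups, so the group difference also sets them apart. For several genes they were the lowest and the highest of all 6, as for Bcl3 at 2.61 and 13.9 CPM. For Traf1 each was the highest of its own group, at 22.4 and 82.0 CPM. Of the 9 T cell markers 6 were tested and 0 were past the limits, and Cd8a, Cd8b1, Ptcra and Rag1 had 0 counts in at least 1 of the other 4 libraries.

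Other cell types were measured in the same way. Summed B cell markers ranged from 9.73 to 13.0 CPM in Thy-Tet1+/+ and from 10.1 to 13.5 CPM in the second group, with 0 of the 2 tested of 6 past the limits. Mature dendritic cell markers, with 0 of the 4 tested of 6 past the limits, ranged from 51.7 to 59.5 CPM against 53.9 to 61.7 CPM. For macrophages the ranges were 93.7 to 373 CPM and 158 to 206 CPM, with 1 of 6 markers past the limits, lower. The 5 C cell markers were the list whose mean log2 CPM did not overlap, at 5.62 to 6.66 against 6.77 to 7.36, although 0 of 5 were past the limits and the summed levels overlapped, at 4784 to 20901 CPM and 10267 to 17025 CPM. Of these markers Chga stood at 6308, 103 and 18420 CPM against 6392, 12322 and 6566 CPM. It ordered the libraries as the parathyroid marker Pth did, at 1352, 57.2 and 12317 CPM against 3995, 8838 and 5063 CPM. The C cell mean and sums therefore cannot be read as RNA of C cells alone. Adipocyte markers, of which 2 of 6 were past the limits as higher, summed to 44.1 to 310 CPM and 164 to 981 CPM. The part of C cells and adipocytes in the values of the 10 genes was not tested.

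**Figure D3:**
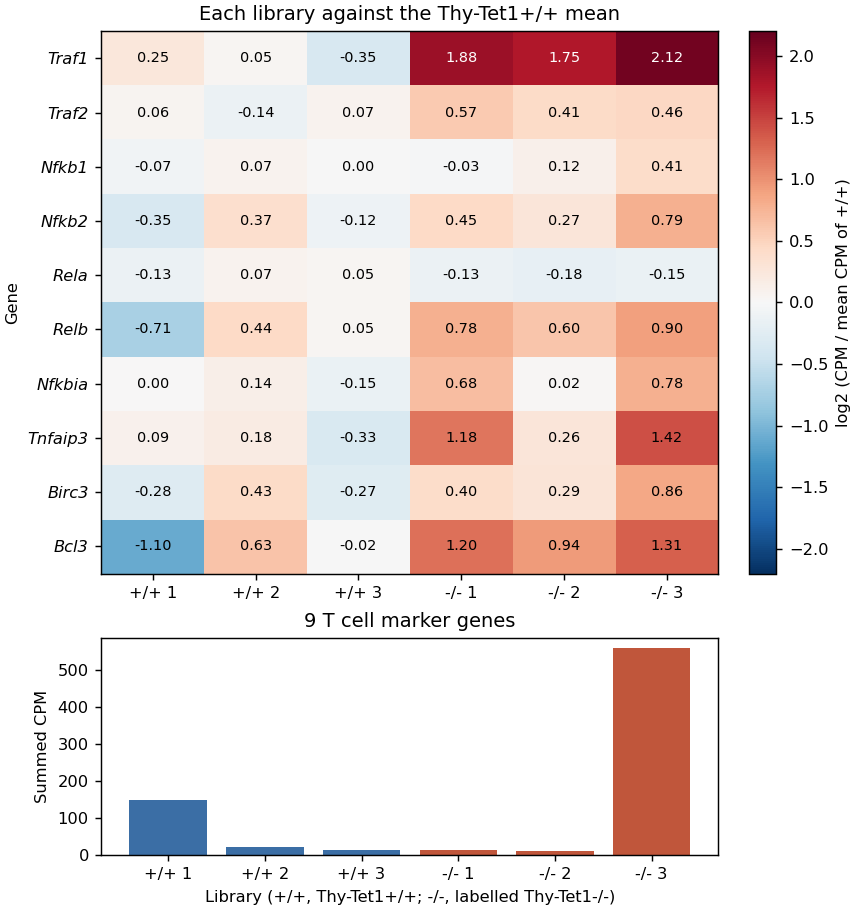
Upper panel, log2 ratio of CPM to the Thy-Tet1+/+ mean for 10 genes (rows) in 6 libraries (columns), red higher and blue lower. Lower panel, summed CPM of 9 T cell marker genes in the same libraries. In the 3 libraries labelled Thy-Tet1-/-, Traf1 is at 1.75 to 2.12, and T cell marker RNA is at 12.2, 9.30 and 559.9 CPM in replicates 1, 2 and 3.

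Levels can be compared between genes only per length of exon, as CPM per kilobase. In Thy-Tet1+/+ the mean ran from 105.9 for Nfkbia and 22.1 for Rela to 9.23 for Nfkb2, and each of these 3 lay apart from the next gene in order. The range of Nfkb2 reached down to 7.22, below the highest libraries of Birc3 and Relb at 8.03 and 7.71. Traf2, Birc3, Relb and Nfkb1 followed at 6.57, 5.97, 5.69 and 5.33 CPM per kilobase, with ranges that overlapped from Traf2 through to Nfkb1. The lowest library of Nfkb1, at 5.08, lay above the highest of Tnfaip3, at 4.93. Tnfaip3 was at 4.34, and Bcl3 and Traf1 were lowest at 2.27 and 2.15, with ranges that overlapped from one to the next. In the libraries labelled Thy-Tet1-/- the first 3 places were the same, at 153, 19.9 and 13.2 CPM per kilobase. Traf1, at 8.14 CPM per kilobase, moved from the last to the eighth place, after Relb, Traf2, Tnfaip3 and Birc3 at 9.68, 9.18, 8.88 and 8.65 CPM per kilobase, and its range overlapped that of Birc3. It lay above the ranges of Nfkb1 at 6.03 and Bcl3 at 5.06.

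The genes whose pattern over the 6 libraries was most like that of Traf1, by Pearson correlation of log2 CPM, were L3mbtl1, Abhd14b, Inmt, Pcmtd2 and Rassf6, at 0.997, 0.996, 0.994, 0.994 and 0.994. All points share the group difference, so this is a description. The correlation takes no account of the size of a difference. Abhd14b had a mean of 84.3 CPM in Thy-Tet1+/+ and 94.2 CPM in the second group, a fold of 1.12 that was not past the limits. Inmt, a methyltransferase of indoleamines, had 13.5, 11.8 and 9.54 CPM in Thy-Tet1+/+ and 46.5, 43.1 and 44.8 CPM in the second group. L3mbtl1, a chromatin reader, was far less abundant, at 6 to 11 counts per library against 28 to 38. Of the other 9 genes, Traf2 came closest to Traf1, with a correlation of 0.919, which 314 tested genes exceeded.

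To set the 10 genes in their pathway, 90 further genes were taken from a fixed list of NF-kB ligands, receptors, adaptors, kinases, inhibitors, deubiquitinases and targets. The list was drawn up with earlier results of these data known, so its shares and p-values are not independent support. Of these, 74 had enough counts to be tested, 12 were higher and 2 lower past the limits, and the median log2 fold change was 0.06. With all 6 libraries the 14 make up 18.9% of those tested, where 9.20% of all tested genes were past the limits. Without the 2 libraries with most T cell marker RNA, 10 were past the limits, 7 of them higher. That fit put 1503 of all its tested genes past them, against 1301 with all 6 libraries. With the lymphocyte score as covariate 12 pathway genes were past them, 11 of them higher, and 1279 of all genes were. With all 6 libraries and Benjamini-Hochberg adjustment of the edgeR quasi-likelihood test over all genes, 1 of the 74 passed at 0.05, Bcl2l1. Over all tested genes 0.113% passed. Of the 74, 21 had an unadjusted edgeR p under 0.05, where 18.9% of all tested genes did. These p-values weigh the difference between the groups against the spread among the libraries within each group.

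**Figure D4:**
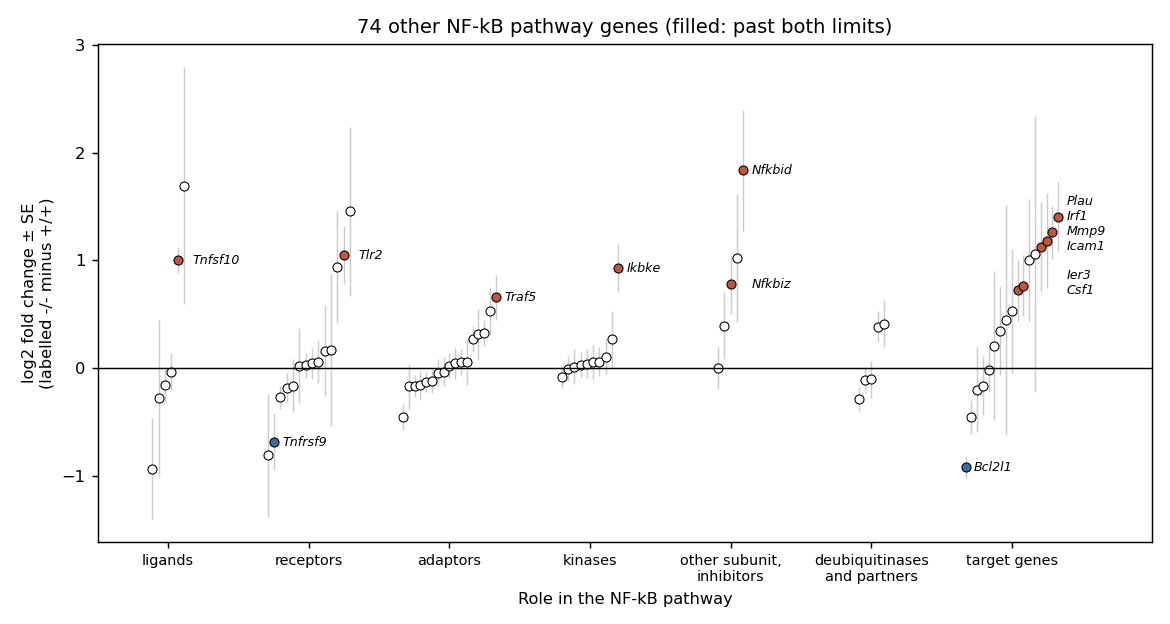
Log2 fold change with SE of 74 tested NF-kB pathway genes outside the 10, libraries labelled Thy-Tet1-/- minus Thy-Tet1+/+, grouped by role on the x axis. Filled points are past the limits on fold change and unadjusted p. The target genes hold 7 of the 14 filled points, and the adaptors and kinases cluster near 0.

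Of the ligands 1 of 6 tested was past the limits, and of the receptors 2 of 14. Over all tested genes the share was 9.20%. Tnfsf10, which encodes the death ligand TRAIL, was the ligand. It stood at 25.9, 27.4 and 29.7 CPM in Thy-Tet1+/+ and at 60.0, 56.9 and 49.5 CPM in the second group, where every library was higher, with a log2 fold change of 1.00 ± 0.12 (SE) and an edgeR adjusted p of 0.0555. Over the alternatives the adjusted p of Tnfsf10 ran from 3.06e-08 with DESeq2 to 0.310. Tnf itself had at most 11 counts in any library and did not pass the filter on low counts. Without that filter its log2 fold change was 0.28, with an edgeR adjusted p of 0.940. Of the receptors, Tlr2, a sensor of bacterial lipoproteins, was higher, at 62.2, 92.1 and 121 CPM against 232, 154 and 185 CPM, with a log2 fold change of 1.05 ± 0.27 (SE) and an edgeR adjusted p of 0.121. Tnfrsf9, a costimulatory receptor that signals through TRAF1 and TRAF2, was lower, at 88.4, 148 and 84.2 CPM against 81.1, 54.0 and 64.8 CPM, with a log2 fold change of -0.68 ± 0.26 (SE) and an edgeR adjusted p of 0.228. It stayed past the limits in 8 of 16 alternatives and was at -0.37, short of them, without Thy-Tet1+/+ replicate 2. The TNF receptors Tnfrsf1a and Tnfrsf1b had log2 fold changes of 0.03 ± 0.11 and 0.02 ± 0.35 (SE). Cd40, which uses TRAF1, TRAF2 and TRAF3, had 0.94 ± 0.52 (SE) with overlapping groups.

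Adaptors and kinases lay near 0 as groups, with medians of 0.03 over 17 genes and 0.05 over 10. Among the TRAF genes, Traf5 was past the limits, at 9.25, 8.40 and 10.6 CPM in Thy-Tet1+/+ and 18.2, 12.6 and 13.8 CPM in the second group, with a log2 fold change of 0.66 ± 0.21 (SE) and an edgeR adjusted p of 0.173. Traf3, which keeps NIK low, was not, at -0.12 ± 0.11 (SE). Of the kinases, Ikbke, an IKK-related kinase that is itself induced by NF-kB, was past the limits. It stood at 12.7, 12.5 and 10.8 CPM against 23.3, 16.5 and 28.5 CPM, with a log2 fold change of 0.93 ± 0.22 (SE) and an edgeR adjusted p of 0.114. Map3k14, which encodes NIK, had 0.27 ± 0.26 (SE). The signs of Traf3, Map3k14, Tnfrsf1a and Tnfrsf1b were kept in 14, 15, 14 and 11 of 16 alternatives. Exons of Traf5 and Ikbke overlap antisense transcripts over 205 and 159 bases.

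The remaining subunit, Rel, had a log2 fold change of 0.39 ± 0.31 (SE) with overlapping groups. Of the 4 other IkB genes, those of the nuclear proteins IkB zeta and IkB NS were past the limits as higher, where 5.54% of all tested genes were. Nfkbid, for IkB NS, rested on low counts, 13, 25 and 11 against 67, 36 and 128, with a log2 fold change of 1.83 ± 0.56 (SE) and an edgeR adjusted p of 0.164. Nfkbiz stood at 5.22, 8.98 and 7.71 CPM against 13.1, 9.78 and 15.0 CPM, with 0.78 ± 0.27 (SE) and an edgeR adjusted p of 0.203. Without the 2 libraries with most T cell marker RNA Nfkbiz was at 0.45, short of the limits. In both genes the labelled replicate 2 was the lowest of its group, as it was for Tnfaip3. None of the 5 deubiquitinases and their binding partners was past the limits, where 9.20% of all tested genes were, and 2 of them had an unadjusted edgeR p under 0.05.

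Of 17 tested target genes, 6 were past the limits as higher and 1 as lower, where all tested genes gave 5.54% and 3.66%, and they were a mixed set. Irf1, a transcription factor that interferon also induces, stood at 30.0, 41.7 and 30.2 CPM in Thy-Tet1+/+ and at 75.1, 61.2 and 109 CPM in the libraries labelled Thy-Tet1-/-, with a log2 fold change of 1.26 ± 0.25 (SE) and an edgeR adjusted p of 0.0958. Icam1, an adhesion molecule for leukocytes, stood at 19.6, 66.8 and 52.5 CPM against 101, 83.4 and 121 CPM, with 1.13 ± 0.41 (SE) and an edgeR adjusted p of 0.216. Thy-Tet1+/+ replicate 1 of Icam1 was far below the other 2, the same library that was low for Relb and Bcl3. Plau, the urokinase gene, was at 5.35 to 8.90 CPM against 13.8 to 26.9 CPM, with 1.40 ± 0.32 (SE) and an edgeR adjusted p of 0.106. Mmp9, Ier3 and Csf1, a matrix protease, a stress response gene and the macrophage growth factor, had log2 fold changes of 1.18, 0.77 and 0.72 with edgeR adjusted p-values of 0.219, 0.217 and 0.240. They stayed past the limits in 9 of 15, 11 of 16 and 9 of 16 alternatives, and none of the 3 did without the 2 libraries with most T cell marker RNA, where Ier3 was at 0.48 and Csf1 at 0.37. Exons of Icam1 and Irf1 overlap transcripts on the opposite strand over 511 and 135 bases.

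Bcl2l1, which encodes the survival protein BCL-XL, fell, against the direction of the other 6. It stood at 139, 148 and 132 CPM in Thy-Tet1+/+ and at 73.5, 72.9 and 75.0 CPM in the libraries labelled Thy-Tet1-/-. The groups of Bcl2l1 were tight and far apart, with a log2 fold change of -0.92 ± 0.10 (SE) and an edgeR adjusted p of 0.0466, lower in 3 of 3 libraries than every Thy-Tet1+/+ library. Over the alternatives its adjusted p ran from 1.16e-13 with DESeq2 to 0.310, above 0.05 whichever library was left out, and the fold change from -0.96 to -0.58. Scaling to 10 epithelial genes, at -0.58, left it short of the limit on fold change. Without the 2 libraries with most T cell marker RNA it was -0.93, with an edgeR adjusted p of 0.114.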

How the data were processed

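Poly(A)-selected RNA of thyroid glands was sequenced, although the extraction protocol in the labels names retinas. The values the authors deposited are unnormalized counts of reads for each gene. The submitters' processing notes name the build mm10, and the aligner, the counting program and strand use are not given in the sources used here. Libraries were grouped by their labels.

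Groups were compared with edgeR 4.0.16 under R 4.3.3 (filterByExpr, TMM scaling, glmQLFit and glmQLFTest) on all 6 libraries in one fit, with Benjamini-Hochberg adjustment over 14143 genes. The limits, a fold over 1.5 in either direction, taken on the log2 scale, and an unadjusted p under 0.05, are those of the study. Log2 CPM had a prior count of 2, and the biological coefficient of variation was 0.327. The fit was tested on simulated data. Exon lengths and overlaps came from GENCODE annotation of GRCm38, and promoters from RefSeq.

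The 10 genes, the pathway list and the marker lists were chosen with earlier results of these data known. Named were the 10 genes, every pathway gene past the limits, 8 further pathway genes whatever their value (Traf3, Traf5, Tnfrsf1a, Tnfrsf1b, Cd40, Tnf, Map3k14 and Rel), Tet1 and the 5 genes most like Traf1. Marker genes, and the pathway genes Cd27, Ltb, Ccl5, Cd40lg, Tnfrsf8, Lta, Il6, Myd88 and Cflar, were named after their values were seen. Further endothelial, fibroblast, parathyroid and muscle marker lists are given among the other observations. Alternatives were RLE size factors, total counts, scaling to 10 epithelial genes, DESeq2 1.42.0, limma-voom (limma 3.58.1), other filters on low counts, a replicate block, a lymphocyte score as covariate and leaving out each library.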

Additional observations from a re-analysis of the deposited data

How the results depend on the processing

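The count of pathway genes past the limits was 14 with all libraries, 22 with scaling to 10 epithelial genes, 9 with the replicate number as a block, and 9 to 15 when each library was left out in turn, with 9 without the labelled replicate 1 or 3. The count with an adjusted p under 0.05 was 1 with edgeR. It was 8 with DESeq2, 2 with at least 10 counts in every library, and 0 with epithelial scaling, the replicate block, the lymphocyte covariate, any library left out (0 to 0), or both T cell libraries left out, a choice made after seeing the data. With total counts alone it was again 1, Tnfsf10 in place of Bcl2l1. The share of all genes with an adjusted p under 0.05 was taken for edgeR with all libraries only. The 8 with DESeq2 therefore cannot be set against such a share. Of the 10 genes, 4 were past the limits, against 8 with total counts alone and 8 with epithelial scaling. The count was 4 with the lymphocyte covariate, 2 to 6 with a library left out, and 1 without both T cell libraries. It was 2 without Thy-Tet1+/+ replicate 3, the labelled replicate 1 or the labelled replicate 3. Traf1 was past the limits in 16 of 16 alternatives, Tnfaip3 in 15, Bcl3 in 12 and Relb in 11. Since the 10 genes were picked on this contrast, these counts describe the effect of processing only and are no test of the differences. Over all genes the count was 1301, 60.2% of them higher, against 2444, 95.1% higher, with epithelial scaling and 1709, 86.1% higher, with total counts alone. It was 1145 with the replicate block, 1279 with the lymphocyte covariate, 1074 to 1502 with a library left out, and 1503 without both T cell libraries. Equal replicate numbers did not mark pairs, since the deviations of same-numbered libraries correlated at -0.17, -0.37 and -0.19, and 0 of 6 libraries correlated best with its own number. The replicate block left 4 of the 10 genes past the limits. The cause of these shifts was not tested. Depth was low for Bcl3, Nfkbid and Mmp9, with 22, 11 and 8 counts in their lowest libraries.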

Other observations

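Of the pathway genes, 5 that lymphocytes express, picked after their values were seen, were high in 1 library, the labelled replicate 3, which also held most T cell marker RNA. Cd27, a costimulatory TNF receptor of T and B cells that binds TRAF2, had 38, 4 and 2 counts in Thy-Tet1+/+ and 2, 2 and 362 counts in the libraries labelled Thy-Tet1-/-. Ltb, the membrane anchor of lymphotoxin that feeds the non-canonical arm, had 28, 41 and 11 counts against 24, 28 and 323. Ccl5, a chemokine that T cells make, had 24, 27 and 37 counts against 8, 6 and 241. Cd40lg and Tnfrsf8 had 22 and 19 counts in the labelled replicate 3 and at most 1 in any other library. Lta, another lymphotoxin gene, was not high in that library, at 13.1, 14.5 and 14.8 CPM in Thy-Tet1+/+ and 14.1, 13.1 and 10.9 CPM in the second group.

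Of the 74 pathway genes tested, 16 were higher and 7 lower without overlap of the groups. Over all tested genes 12.5% were higher and 14.3% lower in this way. The 7 include a Toll-like receptor adaptor and a death receptor inhibitor, which were short of the limits. Myd88, the adaptor of Toll-like and interleukin-1 receptors, stood at 31.9, 36.8 and 31.5 CPM in Thy-Tet1+/+ and at 26.3, 23.9 and 23.4 CPM in the second group, a log2 difference of -0.45 with an edgeR adjusted p of 0.135. Cflar, an inhibitor of death receptor signalling, stood at 204, 146 and 152 CPM against 118, 131 and 118 CPM, with -0.45 and an edgeR adjusted p of 0.197. Myd88 and Cflar were named after their values were seen. Il6, a classical target, had 0 counts in every library.

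Summed marker levels of other cell types in Thy-Tet1+/+ and in the libraries labelled Thy-Tet1-/- overlapped, at 447 to 566 CPM and 443 to 603 CPM for endothelial cells, 884 to 1112 CPM and 941 to 1123 CPM for fibroblasts, 110 to 13185 CPM and 4328 to 9509 CPM for parathyroid, and 635 to 5386 CPM and 24.2 to 5763 CPM for muscle. Of the 6 fibroblast markers 1 was past the limits, Pdgfra, at 35.2, 36.7 and 30.0 CPM against 55.6, 50.7 and 54.3 CPM. Dcn was also higher without overlap, at 259 to 389 CPM against 433 to 444 CPM. Col1a1 was lower without overlap, at 88.9 to 104 CPM against 60.4 to 87.3 CPM, and Col1a2, Col3a1 and Lum overlapped. The endothelial marker Vwf was lower without overlap, at 51.8 to 71.9 CPM against 38.4 to 46.0 CPM. Over all tested genes 12.5% did not overlap as higher and 14.3% as lower.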
